A study of Oryzias latipes with 3 samples.

Results

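Closely spaced acetylated H3K4me3 peaks are stretches of medaka chromatin that carried the promoter mark, overlapped acetylated chromatin and had another H3K4me3 peak nearby. They were taken as H3K4me3 peaks under 2000 bp wide that shared at least 1 bp with an H3K27ac peak and had another H3K4me3 peak whose edge was at most 5000 bp away. The rule selected 2664 of 12884 H3K4me3 peaks, which is 20.7% of the list (Wilson 95% interval 19.99 to 21.4) and 24.1% of the 11065 H3K4me3 peaks that overlapped H3K27ac (23.3 to 24.9). The peaks were selected on peak width, overlap with H3K27ac and gap, so values of those 3 measures are given as descriptions only. The comparison set, called widely spaced peaks, consists of the 7607 H3K4me3 peaks that met the same width and overlap limits but had no other H3K4me3 peak within 5000 bp.

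The peaks come from chromatin immunoprecipitation and sequencing (ChIP-seq) of medaka (Oryzias latipes), using entire embryos of stage 24, with no genetic change or treatment named in the labels. One list of H3K4me3 peaks and one of H3K27ac peaks were used, each from a single sample of 600 embryos raised at 26 °C. A further H3K27ac sample was not analysed here. All cell types of the embryo are pooled in a sample, so an overlap of the marks, or a pair of neighbouring peaks, does not show that they occur in the same cells.

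H3K4me3, trimethylation of lysine 4 on histone H3, lies on the nucleosomes on either side of active transcription start sites. H3K27ac, acetylation of lysine 27 on the same histone, is found at active promoters and enhancers. Start sites can lie close together where genes are transcribed away from each other out of a shared promoter region, where genes of a compact array follow each other, and where a gene has alternative promoters. No start sites of the build used by the lists were at hand, so the name "promoter" was not checked here and peaks are given by position, counted from 1 in the lists' own genome build (not stated in the sources used here).

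Each peak carries a score from the authors' peak caller, a number with no unit whose meaning is not stated. It ran between 50.01 and 3233 for H3K4me3 and between 50.0 and 3223 for H3K27ac, and 882 H3K4me3 peaks shared the value 3100. Scores are compared only within a list. Each mark has 1 list, so the values below lack a replicate check and p-values were not computed. Intervals cover counting error only, peaks being treated as separate counts. Read depth is unknown, because the lists hold no read counts.

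Most closely spaced peaks stood in pairs. Chaining all H3K4me3 peaks with gaps of at most 5000 bp, whatever their width or acetylation, gave 1475 runs that held at least 1 closely spaced acetylated peak. Of the 2664 peaks, 2220 were in runs of exactly 2 and 444 in runs of 3 or more, a share of 16.7% (15.3 to 18.1). There were 137 runs of 3, 27 of 4, 4 of 5 and 1 of 8, and none of 6 or 7. A neighbour lay within the limit on both sides for 170 peaks.

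The nearest neighbour was itself a closely spaced acetylated peak in 82.2% of cases (80.7 to 83.6). In 14.6% (13.3 to 16.0) it was an H3K4me3 peak without H3K27ac, and in 3.19% (2.59 to 3.93) an acetylated peak of 2000 bp or more. A neighbour within the limit is itself close, so these shares are read against the whole H3K4me3 list, of which 79.7% was acetylated and under 2000 bp, 14.1% lacked H3K27ac and 6.16% was acetylated and wider. The first 2 shares lay near those of the list. The third was lower than in the list, but acetylated peaks of 2000 bp or more were also few among all close H3K4me3 peaks, 126 of 3316. The limits left out 126 acetylated close neighbours of 2000 bp or more, 509 narrower ones without H3K27ac and 17 wide ones without H3K27ac, out of 3316 H3K4me3 peaks with a neighbour within 5000 bp.

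Peaks next to each other that both met the rule formed 1167 pairs. Their gaps, measured from edge to edge, had a median of 2197 bp (interquartile range 827.5 to 3855) and ran from 3 to 5000 bp. Small gaps were frequent. Chromatin fragments were given as 200 to 300 bp, so gaps up to 0.25 kb are about the length of a fragment or shorter. Whether peaks that close are separate was not tested. Per 250 bp of distance to the nearest neighbour, 308 closely spaced peaks lay at up to 0.25 kb (exact Poisson 95% interval 275 to 344), 187 at 0.25 to 0.5 kb (161 to 216), between 80 and 165 in each step from 0.5 to 4 kb and between 119 and 151 in each step from 4 to 5 kb.

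The limits cut through a continuous range of values. The peaks just inside the gap limit were those on chromosome 13 at 16363507 to 16364062 and 16356908 to 16358506, which are each other's neighbours at 5000 bp and scored 471.7 and 1640 for H3K4me3, and that at 5770550 to 5771630, at 4995 bp, which scored 1059. Just outside were a peak on chromosome 9 at 30441457 to 30442274, with a gap of 5005 bp and a score of 337.7, and the neighbours on chromosome 18 at 27027573 to 27028677 and 27033684 to 27034998, with 5006 bp and scores of 2320 and 3100. At the width limit, the peaks just inside were 1998, 1994 and 1993 bp wide and scored 599.3, 1558 and 71.44, and those just outside were 2003, 2003 and 2007 bp wide and scored 2461, 1776 and 2829.

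Closely spaced peaks had lower scores for both marks than widely spaced ones. The median H3K4me3 score was 876.0 in closely spaced peaks (95% interval 828.0 to 933.6) and 1387 in widely spaced peaks (1338 to 1427), a difference of -511. The median was lower in closely spaced peaks on 24 of 24 chromosomes, with differences between -965 and -195. For H3K27ac, taking the highest score among the overlapping peaks, the medians were 414.6 (392.9 to 436.1) and 538.1 (521.8 to 556.2), a difference of -124. It was lower in closely spaced peaks on 22 of 24 chromosomes and higher on chromosomes 19 and 23. When the whole H3K4me3 list was cut into 5 equal classes by score, the highest class held 11.1% (9.97 to 12.4) of closely spaced and 25.9% (24.9 to 26.9) of widely spaced peaks. The lowest class held 15.4% (14.1 to 16.8) and 11.3% (10.7 to 12.1). Low scores were not particular to close spacing. Widely spaced peaks with the nearest neighbour beyond 50 kb (982 peaks) had medians of 978 (854.2 to 1062) for H3K4me3 and 421.3 (384.2 to 466.4) for H3K27ac. At 20 to 50 kb the medians were 1246 and 518. Peaks are not replicates, and the difference between closely and widely spaced peaks was not tested.

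Scores were lower than in widely spaced peaks at gaps up to 4 kb and not at 4 to 5 kb. This division was set after the scores had been seen. The 2129 peaks with gaps up to 4 kb had a median H3K4me3 score of 782.9 (716.4 to 829.9), while the 535 with gaps of 4 to 5 kb had 1544 (1412 to 1685), close to the 1549 (1363 to 1699) of widely spaced peaks at 5 to 6 kb. Below 4 kb the medians lay between 625.1 (544.3 to 731.4), at gaps up to 0.5 kb, and 889.0 (782.9 to 1053), at 3 to 4 kb, and in the bins from 4 to 20 kb between 1506 and 1607. H3K27ac scores stepped at the same gap, with medians of 405.8 (366.8 to 440.7) at 3 to 4 kb and 619.0 (554.1 to 729.6) at 4 to 5 kb. Among the 250 bp bins below 4 kb, the highest H3K27ac median was 480.4 (392.9 to 595.7), at gaps up to 0.25 kb. That interval includes the 538.1 of all widely spaced peaks, as does that at 1.75 to 2 kb, 381.4 (303.5 to 560.6). Scores were lower in the peaks with gaps up to 4 kb than in those with 4 to 5 kb on 22 of 24 chromosomes for each mark.

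**Figure D1:**
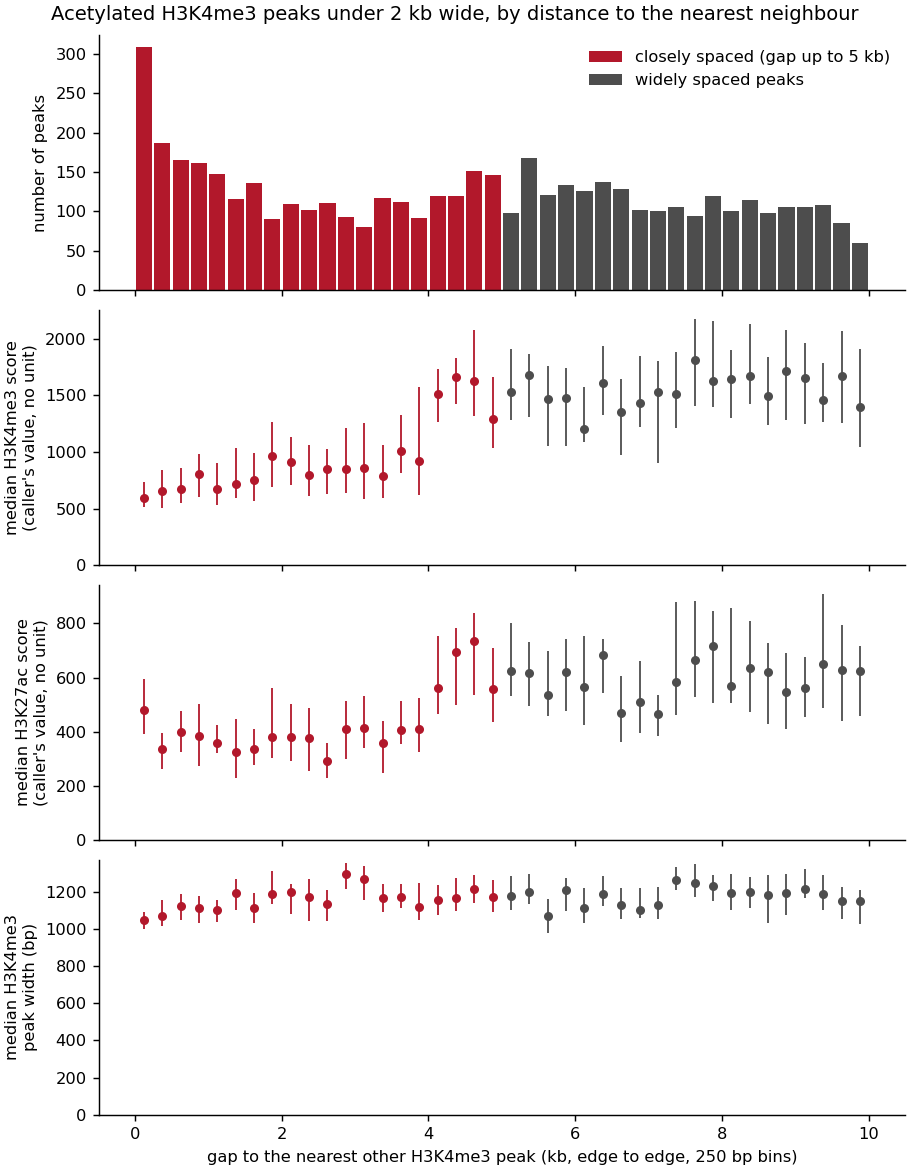
Acetylated H3K4me3 peaks under 2 kb wide, grouped in 250 bp steps of the gap to the nearest other H3K4me3 peak (horizontal axis, kb); red marks closely spaced peaks and grey widely spaced ones. From top to bottom the panels give the number of peaks, the median H3K4me3 score, the median H3K27ac score and the median H3K4me3 width, with vertical lines for the 95% interval of each median. Just below and above 4 kb the medians were 918 (616 to 1573) and 1512 (1267 to 1731) for H3K4me3. For H3K27ac they were 411 (325 to 524) and 563 (465 to 753). The intervals of these adjacent 250 bp bins overlap, while those of the wider bins of 3 to 4 and 4 to 5 kb do not. The width shows no such step.

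The step was visible in scores and not in the extent of the peaks. Median H3K4me3 width was 1177 bp (1138 to 1218) at gaps of 3 to 4 kb and 1175 bp (1139 to 1221) at 4 to 5 kb. The median share of the H3K4me3 peak covered by H3K27ac was 85.7% and 87.2% in these bins. Measured between midpoints, the H3K4me3 score had medians of 890.5 (657.4 to 1135) at 4.5 to 5 kb, 1315 (953.4 to 1567) at 5 to 5.5 kb and 1574 (1398 to 1807) at 5.5 to 6 kb. A peak caller of the kind named in the peak names scores a peak against the reads around it. Whether a window around each peak takes part in the step was not tested, since reads, control library and settings are not in the sources used here.

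**Figure D2:**
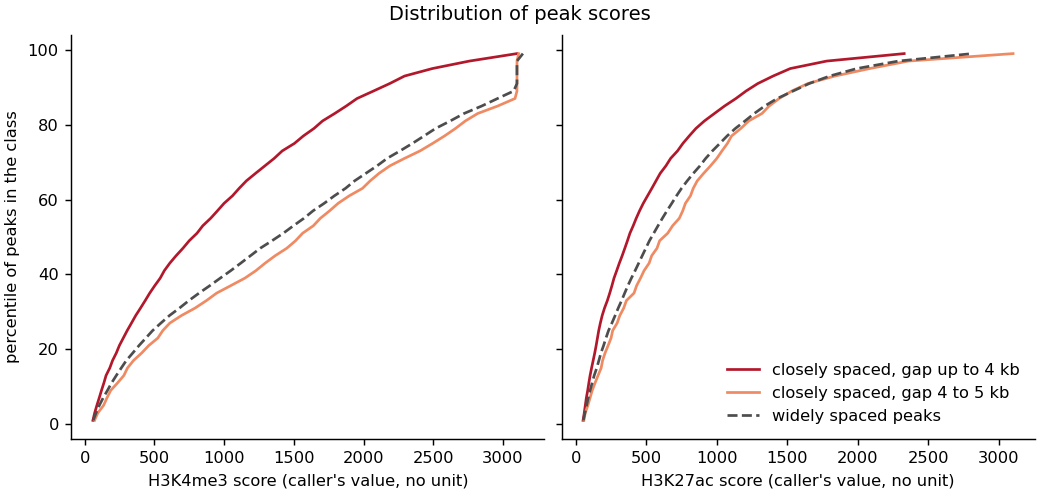
Percentile curves of H3K4me3 scores (left) and H3K27ac scores (right), both in the caller's units, for closely spaced peaks with gaps up to 4 kb (red), closely spaced peaks with gaps of 4 to 5 kb (orange) and widely spaced peaks (dashed grey). A curve farther left means lower scores; the red curve lies left of the other two, which run close together, and 1.32%, 13.1% and 10.5% of the 3 classes had an H3K4me3 score of 3100 or more.

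The score difference was also seen among peaks of similar width. Closely spaced peaks had a median width of 1141 bp (1127 to 1159) and widely spaced peaks 1178 bp (1165 to 1186). When the peaks of both sets were divided into 3 equal classes by width, the median H3K4me3 score in the narrowest class was 411.8 (361.5 to 454.6) for closely and 461.9 (426.6 to 494.7) for widely spaced peaks. In the middle class the values were 976.9 (902.9 to 1072) and 1574 (1524 to 1621), and in the widest class 1525 (1399 to 1603) and 2077 (2013 to 2139). The intervals overlapped in the narrowest class and not in the other two.

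At a given H3K4me3 score, closely and widely spaced peaks had similar H3K27ac scores. In the lowest of the 5 score classes of the H3K4me3 list the H3K27ac medians were 135.1 (124.9 to 150.6) and 140.6 (129.9 to 153.5). In the middle class they were 448.0 (419.2 to 491.0) and 455.4 (431.8 to 474.4), and in the highest class 1143 (1060 to 1247) and 1161 (1126 to 1192). The class above the lowest was the exception, with 255.6 (227.2 to 273.6) in closely spaced and 212.0 (201.5 to 223.7) in widely spaced peaks. The lower acetylation scores of closely spaced peaks thus went together with their lower H3K4me3 scores.

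Median scores by kind of neighbour had overlapping intervals, and their differences were not tested. Overlap of intervals does not by itself show that the medians are alike. Among peaks with gaps up to 4 kb, the median H3K27ac score was 373.0 (349.1 to 392.9) where the nearest neighbour was another closely spaced acetylated peak (1738 peaks), 458.6 (357.8 to 522.1) where it lacked H3K27ac (328 peaks) and 366.0 (224.8 to 434.8) where it was acetylated and 2000 bp or wider (63 peaks). The intervals overlap. The median was lower beside a closely spaced acetylated peak than beside one without H3K27ac on 18 of 24 chromosomes. For H3K4me3 the medians were 800.4 (729.3 to 847.0), 617.2 (516.4 to 828.0) and 799.3 (489.8 to 984.8), again with overlapping intervals, and the median was higher beside a closely spaced acetylated peak than beside one without H3K27ac on 14 of 24 chromosomes and lower on 10.

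Paired peaks could differ widely in H3K4me3 score. Sorting each pair by score fixes which median is higher, so only the sizes are described. The higher of the 2 H3K4me3 scores had a median of 1574 (1509 to 1632) and the lower a median of 446.6 (412.1 to 480.4) over the 1167 pairs. The median ratio between them was 2.70 (interquartile range 1.61 to 5.65), and in 133 pairs, or 11.4%, it was 10 or more. Neighbouring widely spaced peaks 5 to 20 kb apart (2066 pairs) had medians of 2311 (2251 to 2363) and 837.2 (799.4 to 900.01) and a median ratio of 2.16 (1.40 to 4.74), and 12.0% of them (247 pairs) had a ratio of 10 or more, so such contrasts were about as frequent there. In pairs with gaps up to 4 kb both the higher score, 1424 (1373 to 1507), and the lower, 403.9 (370.5 to 434.8), fell short of those at 4 to 5 kb, which were 2136 (2033 to 2324) and 644.9 (544.9 to 775.2).

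Scores of partners were at most weakly related, with a lean to opposite levels at gaps up to 4 kb. One peak was above and the other at or below the median of the H3K4me3 list, 1014, in 55.5% of pairs (52.7 to 58.4), both were at or below it in 26.9% (24.4 to 29.5) and both above it in 17.6% (15.5 to 19.9). The corresponding shares of widely spaced neighbours were 42.1% (39.998 to 44.3), 14.1% (12.7 to 15.7) and 43.8% (41.7 to 46.0). These shares also depend on how many peaks of a set exceed the list median. In all, 1455 of the 2664 closely spaced and 3053 of the 7607 widely spaced peaks were at or below it. The shares differed on either side of the 4 kb gap. Up to 4 kb, 57.9% of pairs (54.7 to 61.1) were mixed and 11.7% (9.72 to 13.9) had both peaks above the list median, while at 4 to 5 kb 47.4% (41.4 to 53.4) were mixed and 37.6% (32.0 to 43.6) had both above, nearer to the widely spaced neighbours. Across the pairs, Spearman's rho between the left and right H3K4me3 score was -0.05 for closely spaced peaks (-0.13 up to 4 kb and 0.02 at 4 to 5 kb) and 0.05 for widely spaced neighbours, as a description over peaks of 1 library. For H3K27ac, over pairs with separate H3K27ac peaks, rho was -0.08 (-0.20 up to 4 kb and 0.06 at 4 to 5 kb) and 0.02.

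Within a pair, the peak with more H3K4me3 tended to have more H3K27ac as well. Among 1078 pairs with separate H3K27ac peaks and no ties, the peak of higher H3K4me3 score also had the higher H3K27ac score in 70.3% (67.5 to 73.0). The share was 56.2% (51.2 to 61.0) where the H3K4me3 scores differed by less than a factor of 2 and 79.7% (75.3 to 83.4) where they differed by a factor of 4 or more. For widely spaced neighbours it was 75.2% (73.2 to 77.0) in all, 63.9% (60.7 to 66.9) under a factor of 2 and 90.8% (88.2 to 92.9) at 4 or more.

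The largest contrasts were at chromosome 17, where a 397 bp peak at 8279298 to 8279694 scored 51.44 and its neighbour at 8282891 to 8284439, 3196 bp away, scored 3100. Their H3K27ac scores were 201.0 and 1602. On chromosome 5 the peaks at 1835465 to 1836075 and 1841040 to 1842652 scored 58.95 and 2717, with H3K27ac scores of 307.2 and 1386. The next in order were on chromosome 6 at 26159192 to 26165150, on chromosome 17 at 17867471 to 17873062 and on chromosome 18 at 14702059 to 14709012, with ratios of 41.4, 41.1 and 38.0. In all 5 pairs the peak with the higher H3K4me3 score also had the higher H3K27ac score, and the weaker peak was the narrower.

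Few neighbours shared an H3K27ac peak. The same H3K27ac peak overlapped both H3K4me3 peaks in 87 of 1167 pairs, or 7.46% (6.08 to 9.11), called joined pairs here. Joining was nearly confined to small gaps. It occurred in 30 of 36 pairs with gaps up to 50 bp, in 52.3% (43.8 to 60.6) of 132 pairs with gaps up to 0.25 kb, in 16.7% (10.01 to 26.5) at 0.25 to 0.5 kb, in 4 of 128 pairs at 0.5 to 1 kb and in 1 of 205 at 1 to 2 kb. No pair was joined among the 186 with gaps of 2 to 3 kb, the 172 of 3 to 4 kb and the 266 of 4 to 5 kb, for which the Wilson upper bounds were 2.02%, 2.18% and 1.42%. In width the joining peaks had a median of 1999 bp (1911 to 2057), against 1078 bp over the whole H3K27ac list. Joining requires a peak to span the gap, so this comparison follows in part from the definition.

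The 5 smallest gaps all lay in joined pairs. On chromosome 7 the H3K4me3 peaks at 15370519 to 15371809 and 15371813 to 15373079, 3 bp apart, scored 659.4 and 1142 and shared an H3K27ac peak of 2804 bp. Gaps of 3 bp were also found on chromosome 8 at 7000062 to 7002342 and on chromosome 13 at 17606172 to 17608249. In the last of these the left peak scored 126.7 and the right one 2732 within one H3K27ac peak of score 1593. Gaps of 4 bp occurred on chromosome 9 at 19221693 to 19223272 and on chromosome 17 at 24837668 to 24839244. The lists do not tell whether peaks a few bp apart mark separate start sites or the same one.

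The widest joining H3K27ac peak measured 5643 bp, at chromosome 8, 10286219 to 10291861. It covered H3K4me3 peaks at 10286332 to 10287745 and 10288142 to 10290039, which were 396 bp apart and scored 1045 and 390.1. A joining peak of 4117 bp lay at chromosome 5, 18480717 to 18484833, over H3K4me3 peaks that scored 63.16 and 68.59. The only joined pair with a gap over 1 kb was on chromosome 7, where an H3K27ac peak of 3478 bp at 26033872 to 26037349 spanned 1934 bp between H3K4me3 peaks of scores 791.4 and 89.67. Joining peaks of 3476 bp on chromosome 9 at 16016447 to 16019922 and of 3348 bp on chromosome 24 at 6094541 to 6097888 completed the 5 widest.

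Acetylated bases made up a small share of the gaps beyond about 1 kb. In pairs that formed a run of 2 (914 pairs), 6.84% of the gap bases lay in H3K27ac peaks, compared with 4.69% of outer flanks of the same total length, taken in equal parts on both outer sides. The gap held more acetylated bases than the flanks in 515 pairs, fewer in 262 and the same number in 137. A joined pair has its whole gap acetylated by definition. Without joined pairs, 6.18% of gap bases and 4.65% of flank bases were acetylated in runs of 2 (836 pairs), with more in the gap in 440 pairs and fewer in 262. With joined pairs included, the shares at gaps up to 0.25 kb were 49.3% in the gap and 19.2% in the flanks. At 0.5 to 1 kb they were 14.5% and 4.78%, and at 4 to 5 kb 4.78% and 4.19%. Joined pairs were 52.3% of all pairs up to 0.25 kb. The mean number of acetylated bases was 58.1 bp in the gap and 22.6 bp in the flanks up to 0.25 kb. At 4 to 5 kb it was 217 and 190 bp, so the share in the gap fell with distance while the mean number was larger. Over all 1167 pairs, in runs of any size, the shares were 6.67% in the gap and 6.19% in the flanks. Without joined pairs they were 6.14% and 6.17%, so that the total of bases then showed no excess in the gap, unlike in runs of 2. Counted by pair, 529 of the 1080 pairs that were not joined had more acetylated bases in the gap and 379 had fewer. In runs of 3 or more an outer flank can itself reach another H3K4me3 peak. No H3K27ac base lay in the gap in 391 pairs (33.5%, 30.9 to 36.3). Separate H3K27ac-only peaks, which overlap no H3K4me3 peak, had their midpoint in the gap of only 8 pairs.

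**Figure D3:**
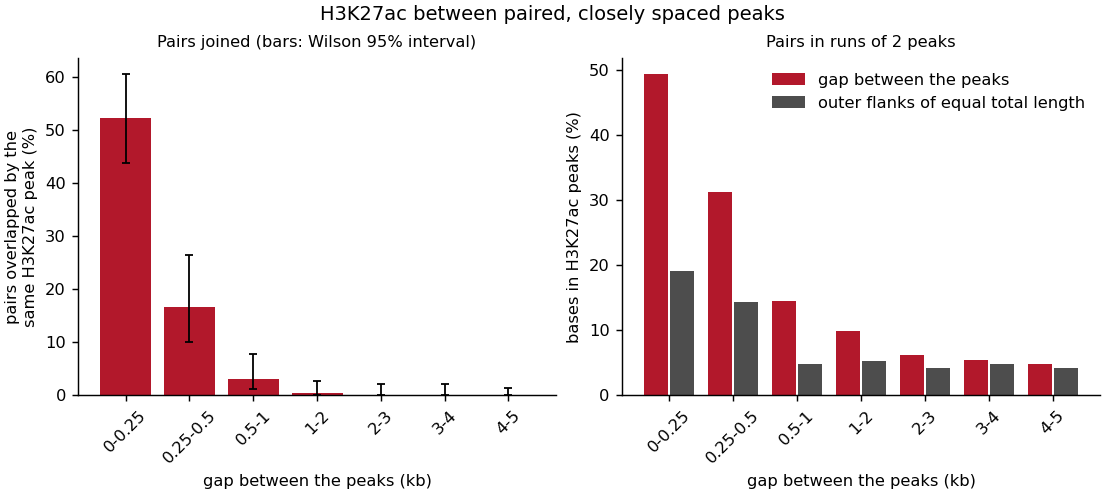
Left, share of adjacent closely spaced peaks overlapped by the same H3K27ac peak, by the gap between them in kb, with Wilson 95% intervals. Right, share of bases inside H3K27ac peaks in the gap (red) and in outer flanks of the same total length (grey), for pairs in runs of 2. Joined pairs, whose whole gap is acetylated by definition, are included. The share in the gap falls with distance, 49.3% up to 0.25 kb and 4.78% at 4 to 5 kb. The mean number of acetylated gap bases does not, with 58.1 bp and 217 bp in these bins.

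H3K27ac reached farther toward the neighbour than away from it at most peaks. For the 2220 closely spaced peaks in runs of 2, the overlapping H3K27ac was followed past the H3K4me3 edge that faces the neighbour and past the opposite edge. It reached farther on the side of the neighbour at 1432 peaks, or 64.5% (62.5 to 66.5), and farther on the other side at 785. The H3K27ac edge lay a median of -6 bp from the facing H3K4me3 edge and -72 bp from the opposite one, where a negative value means that H3K27ac ended inside the H3K4me3 peak. Without joined pairs the share was 61.8% (59.7 to 63.9). For widely spaced peaks, reach toward the nearest H3K4me3 peak was the longer in 51.9% (50.8 to 53.0).

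The bias toward the neighbour became smaller with distance. It was 74.7% (69.2 to 79.5) at gaps up to 0.25 kb, 66.5% (61.8 to 70.9) at 1 to 2 kb and 56.1% (51.4 to 60.7) at 4 to 5 kb, and 53.5% (49.2 to 57.7) for widely spaced peaks at 5 to 6 kb. Joined pairs, 52.3% of pairs up to 0.25 kb, are included, and their H3K27ac crosses the facing edge by definition. No pair that met the rule was joined beyond 2 kb, where the share was 61.8% (56.5 to 66.9) at 2 to 3 kb and 62.2% (56.8 to 67.3) at 3 to 4 kb. It was 66.1% (63.9 to 68.2) where the neighbour was a closely spaced acetylated peak, 57.3% (51.8 to 62.6) where the neighbour lacked H3K27ac and 56.6% (45.4 to 67.1) where it was acetylated and 2000 bp or wider. Without joined pairs the share beside a closely spaced acetylated peak was 63.0% (60.6 to 65.3), an interval that overlaps those of the other neighbours. Where both peaks of a pair met the rule, the bias was found in the peak of higher H3K4me3 score, at 68.4% (65.3 to 71.4), and in that of lower score, at 64.0% (60.9 to 67.1).

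**Figure D4:**
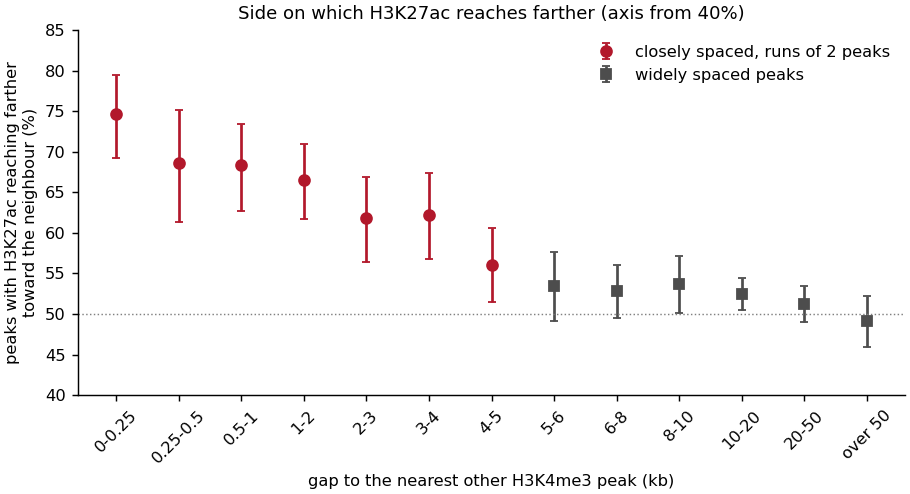
Share of peaks at which H3K27ac reached farther past the H3K4me3 edge facing the nearest neighbour than past the opposite edge (vertical axis, starting at 40%), by gap in kb, for closely spaced peaks in runs of 2 (red circles) and widely spaced peaks (grey squares). Lines are Wilson 95% intervals and the dotted line marks 50%. The share is 74.7% at the smallest gaps and 49.1% beyond 50 kb. Joined pairs, whose H3K27ac crosses the facing edge by definition, are included.

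Coverage of the H3K4me3 peak by H3K27ac differed little between the sets. Its median was 87.0% (86.1 to 87.8) in closely spaced and 87.4% (87.0 to 87.8) in widely spaced peaks. H3K27ac covered the whole H3K4me3 peak in 12.2% (11.0 to 13.5) of closely spaced and 15.6% (14.8 to 16.4) of widely spaced peaks. Only 20 closely spaced peaks overlapped 2 or more H3K27ac peaks.

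Acetylated regions without H3K4me3, the class in which enhancers are sought, were slightly fewer around closely spaced than around all widely spaced peaks. Within 50 kb of the midpoint there were on average 1.92 H3K27ac-only peaks around closely spaced peaks (95% interval 1.85 to 1.99) and 2.10 around widely spaced peaks (2.06 to 2.14). Neighbours at most 5000 bp apart share most of that window but were counted separately, so the intervals for closely spaced peaks are too narrow. The mean was lower for closely spaced peaks on 19 of 24 chromosomes. Against widely spaced peaks with a neighbour at 5 to 20 kb, whose mean was 2.02 (1.97 to 2.07), it was lower on 13 of 24. With gaps up to 2 kb the difference was -0.0769 (-0.186 to 0.0320), an interval that includes 0. The nearest H3K27ac-only midpoint was at a median of 24.1 kb (23.3 to 25.6) from closely spaced and 20.3 kb (19.6 to 21.0) from widely spaced peaks. H3K4me3 peaks at 10 to 50 kb averaged 2.59 (2.52 to 2.66) around closely spaced and 2.27 (2.24 to 2.31) around widely spaced peaks, but 2.92 (2.88 to 2.97) around widely spaced peaks with a neighbour at 5 to 20 kb, so the direction depended on the comparison set. The part of this density in the other differences was not tested.

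Closely spaced peaks occurred on all 24 chromosomes in unequal shares. They made up 25.9% (25.1 to 26.8) of the 10271 acetylated H3K4me3 peaks under 2000 bp. The share was highest on chromosome 10, at 37.5% (32.7 to 42.5), followed by chromosome 8 with 31.5% (27.7 to 35.6) and chromosome 2 with 31.1% (26.0 to 36.7), and lowest on chromosome 7, at 19.6% (16.3 to 23.3). The interval of chromosome 10 does not reach the share of all chromosomes, but it was picked as the extreme of 24. Chromosome 10 also had the most closely spaced peaks in runs of 3 or more, 50, against 3 on chromosome 24. Density per Mb was highest on chromosome 8, at 6.52, where the density of all H3K4me3 peaks was also highest, at 25.87 per Mb. Over the 24 chromosomes, the share had a Spearman's rho of 0.28 with the number of H3K4me3 peaks per Mb, a description only since both come from the same list.

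**Figure D5:**
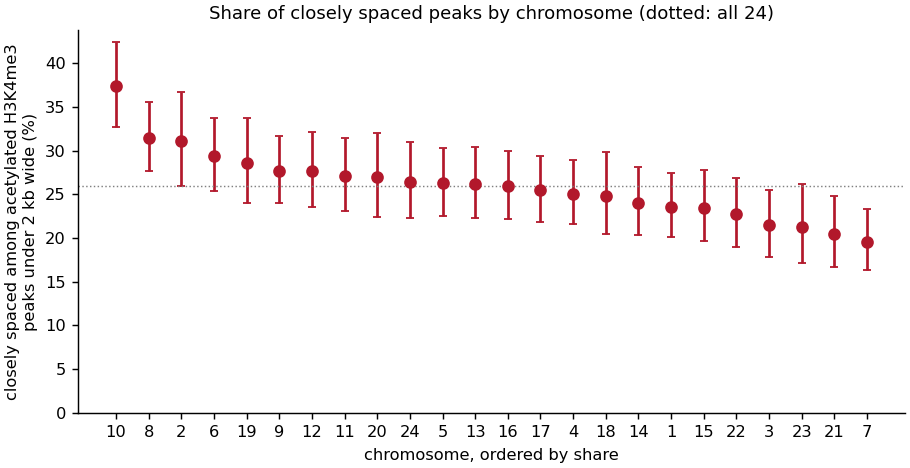
Share of closely spaced peaks among acetylated H3K4me3 peaks under 2 kb wide on each chromosome, ordered by that share, with Wilson 95% intervals; the dotted line is the share over all 24 chromosomes, 25.9%. Chromosome 10 is highest at 37.5% and chromosome 7 lowest at 19.6%.

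The largest run held 8 H3K4me3 peaks over 32155 bp at chromosome 8, 24355045 to 24387199. Of these, 6 met the rule and the other two, at 24369522 to 24370678 and 24370825 to 24372078, had no H3K27ac. Its H3K4me3 scores were low, from 50.63 to 615.9 with a median of 141.3, and the H3K27ac scores of the 6 acetylated peaks lay between 50.33 and 411.8. The first peak of the run scored highest for both marks. Gaps within it measured between 146 and 4531 bp.

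The 4 runs of 5 peaks were also mostly of low H3K4me3 score. At chromosome 9, 10888545 to 10901480, 3 peaks met the rule, the median H3K4me3 score was 160.3 and H3K27ac scores reached 2105. At chromosome 1, 2933130 to 2948146, all H3K4me3 scores were 430.4 or less, while H3K27ac reached 2358. A second run on chromosome 1, at 3164475 to 3181063, contained a peak of score 2835 beside others with a run median of 80.72, and the run at chromosome 11, 10534144 to 10553852, had a median of 246.2. Over all runs of 3 or more, closely spaced peaks had a median H3K4me3 score of 746.8 (616.1 to 904.2), against 902.5 (843.1 to 954.2) in runs of 2. The median was thus lower in runs of 3 or more, with overlapping intervals, and the difference was not tested. The 746.8, taken over closely spaced acetylated peaks only, lay above the run medians of the longest runs named here. Those run medians cover all H3K4me3 peaks of a run, whether or not they met the rule.

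Per 1 Mb window the number of closely spaced peaks had a median of 3 over 712 windows with H3K4me3, and 149 windows had none. The fullest window, at chromosome 22, 1000001 to 2000000, held 18, which was 47.4% of its acetylated H3K4me3 peaks under 2000 bp, against 25.9% over all chromosomes. It was picked by number and did not have the highest share. The window on chromosome 11 at 3000001 to 4000000 held 16, or 59.3%. Windows on chromosome 9 at 13000001 to 14000000 and chromosome 17 at 10000001 to 11000000 held 17 each. In the window on chromosome 17 none of the 17 was in a run of 3 or more, so that all stood in pairs.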

How the data were processed

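The submitters' processing notes name Bowtie, a read aligner. Peak names in the deposited lists contain MACS, a peak caller. Its version and settings, a control library, pooling and the build were not given in the sources used here. Both deposited lists hold a 0-based start, an end and the authors' score for every peak. On 8 of 24 chromosomes peaks passed the last gene of the table at hand (ASM223467v1), so genes and sequences were not used here.

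Overlaps needed 1 shared bp (own array routine, same count with bedtools 2.31.1). Gaps are edge to edge, and H3K27ac-only distances midpoint to midpoint. Shares have Wilson, numbers exact Poisson and medians exact order-statistic 95% intervals; means have normal ones. Differences were counted over chromosomes. The routines were tested on simulated data. Software was SciPy 1.17.1, pandas 2.3.3, matplotlib 3.10.9 and NumPy 2.4.6 under Python 3.11.15.

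Named regions are the 5 runs with most peaks, the 5 pairs each with the smallest gap, widest joining peak and largest H3K4me3 ratio, and 3 peaks on either side of each limit. The fullest windows were named after their values were seen. Flanks were cut to the gap's total length, since a gap has an H3K4me3 edge at either end. The peaks, measures and lists were chosen with earlier results of these data known. Alternatives covered gap, overlap, width and score limits, merging and the window; a gap limit of 4 kb, a split by gap, nearer comparison peaks and leaving out joined pairs were chosen after seeing the data.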

Additional observations from a re-analysis of the deposited data

How the results depend on the processing

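Of 80 alternative values, 33 stayed within the interval of the reported value (within 1.5 times for the number of peaks), 45 moved beyond it and 2 reversed. The interval for acetylated gap bases counts single bases and is therefore narrow. Both reversals came from using only gaps of 4 to 5 kb. The median difference from all widely spaced peaks then became 157 (13.6 to 300) for H3K4me3 (reported -511). For H3K27ac it became 80.9 (-8.50 to 170) (reported -124), an interval that covers both signs. The medians at 4 to 5 kb were 1544 for H3K4me3 and 619 for H3K27ac. Widely spaced peaks had 1549 and 606 at 5 to 6 kb, but 1142 and 489 with the nearest neighbour over 20 kb away. The cause of the reversals was not tested.

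With gaps up to 2 kb, 1312 peaks were found (reported 2664), 4.12% in runs of 3 or more (16.7%), 16.0% of pairs joined (7.46%), 13.7% of gap bases acetylated (6.67%), 68.6% of peaks biased toward the neighbour (64.5%), an H3K4me3 difference of -618 and an H3K27ac-only difference of -0.0769 (-0.182), whose interval includes 0. With gaps up to 10 kb the values were 4874, 41.0%, 3.64%, 3.99%, 59.4%, -155 and, unmoved, -0.250, with 73.1% of pairs ordered alike by both marks (70.3%). The H3K27ac score difference was then -20.4 (-46.3 to 5.54), an interval that includes 0. With gaps up to 4 kb the values were 10.5% in runs of 3 or more, 9.66% joined, 8.07% acetylated, and score differences of -616 and -165.

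The top 50% of H3K27ac peaks by score gave 12.8% joined, 6.25% acetylated, 66.6% toward the neighbour, an H3K27ac difference of -93.3, 66.4% ordered alike and -0.0840 H3K27ac-only peaks. The top 50% of H3K4me3 peaks left 433 peaks, 6.47% in runs of 3 or more, 2.91% joined, 4.23% acetylated, 61.0% toward the neighbour, differences of -420 and -85.9, and 60.1% ordered alike. Merging H3K4me3 peaks up to 500 bp apart gave 0.527% joined, since the small gaps that hold most joined pairs are closed, with 6.19% acetylated, 62.2% toward the neighbour and an H3K4me3 difference of -441. Coverage of at least 50% by H3K27ac gave 6.71% of gap bases acetylated, and no width limit 6.52%. Without joined pairs, 6.14% of gap bases were acetylated and 61.8% of peaks biased. Against widely spaced peaks with a neighbour within 20 kb, the differences were -656 for H3K4me3, -157 for H3K27ac and -0.101 for H3K27ac-only peaks.

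No paired analysis was possible because only 1 list per mark was used. A list for the other H3K27ac sample was not analysed here, so no replicate was left out. Depth is unknown, so peaks that were not called cannot be told apart from unmarked sequence. Scores at 3100 do not rank the strongest peaks.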
